A study of Mus musculus with 14 samples.

Results

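The 38 genes described here make cholesterol and fatty acids or control that synthesis. They were chosen by symbol, 22 as sterol genes and 16 as fatty acid genes, out of 16593 gene symbols on the array. Of the 38, 35 had at least 1 probe under their symbol (19 sterol and 16 fatty acid genes), with 57 probes in all, and 33 gave a signal above background on at least 2 of the 14 arrays and were tested (18 sterol and 15 fatty acid genes). Transcript levels were measured on single-colour Illumina bead arrays, 1 array a sample, in 5 groups of mouse samples. ISM1/ISM2 (3 arrays) stands for blastocysts cultured in ISM1 and ISM2, HTF/MultiBlast (3 arrays) for samples called multiblastocyst and cultured in HTF, and KSOM(aa) (2 arrays) for blastocysts from that medium. The micromanipulation control (3 arrays) and oviduct (3 arrays) carry only these names as cell type, and oviduct was the common control. The labels used here give no strain, age or allele for any group, and by its title the series is about intracytoplasmic sperm injection and culture of embryos, and about blastocysts that turn out abnormal. The series text calls the replicates biological, while the descriptions of all 3 micromanipulation control arrays give replicate 1, so the p-values measure the spread between these arrays, which may in part be technical.

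Cholesterol synthesis turns acetyl-CoA into mevalonate, joins isoprenoid units made from it into squalene, closes squalene into lanosterol and trims that ring system to cholesterol. Fatty acid synthesis starts from the same acetyl-CoA, which is carboxylated, polymerised, elongated and desaturated. Both pathways are transcribed under the control of SREBP factors, which SCAP escorts out of the endoplasmic reticulum when sterols are scarce and which the INSIG proteins hold back when sterols are plentiful. A growing embryo uses the products for membranes and for signalling, and media differ in the lipids they offer.

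The dimmest array was oviduct replicate 1, with a median intensity of 96.58 and 8533 probes (33.2%) above background (detection p under 0.01), and the brightest was oviduct replicate 2, with 152 and 10188 (39.6%). With 2 or 3 arrays a group, precision is limited by their number. The oviduct label was set against maternal markers. Of 13 such markers, 11 were detected on 0 of the 14 arrays, among them *Ovgp1*, the oviduct glycoprotein, *Pax8* of its epithelium and *Myh11* of smooth muscle. The other 2, *Foxj1* and *Acta2*, were detected and tested. Their log2 differences between ISM1/ISM2 and oviduct ran from -0.07 to 0.11, and 0 were called. All 8 trophectoderm markers and all 10 primitive endoderm markers were detected on at least 1 array. Within the ISM1/ISM2 group, replicate 1 stood apart for the lipid genes. It was the highest of the 14 arrays for 20 of the 33 tested genes (60.6%), against 11.5% of all 8669 tested units, a unit being the brightest tested probe of a symbol or a probe without a symbol. Its median intensity of 135.6 lay inside the range of the other arrays.

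Most of the 33 tested genes were expressed in every group. On all 14 arrays, 25 were detected, 13 of them sterol and 12 fatty acid genes. *Srebf1*, which encodes another SREBP factor, had 2 probes that were detected on 0 of 14 arrays. *Fasn*, the fatty acid synthase, had 1 probe that was detected only on oviduct replicate 3 at a log2 intensity of 5.31, with 4.61 to 5.02 on the other arrays. Both fell outside the tests. *Mvk* (mevalonate kinase), *Fdft1* (squalene synthase) and *Acat2* (the thiolase that opens the sterol pathway) had no probe under their symbol and were not analysed here. An F test across the 5 groups passed an adjusted p of 0.05 in 12 of the 33 genes, 6 sterol and 6 fatty acid, against 18.5% of all units.

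The promoters of 4 genes are printed here. *Ebp*, *Insig1* and *Fads2* were called between ISM1/ISM2 and oviduct, and *Hmgcs1* was not. *Hmgcs1* was the single member in whose promoter the letters TCACNCCAC, 1 form of the sterol regulatory element, were found. They are RefSeq sequences of build GRCm38.p6, 300 bases each, from 250 before to 50 after the annotated start, written 5′ to 3′ on the strand of the gene. Capitals mark the sterol element TCACNCCAC and the CCAAT box, each searched on both strands, so that a CCAAT box on the opposite strand reads ATTGG. The *Hmgcs1* promoter lies at chr13:119690101-119690400 on the plus strand, that of *Ebp* at chrX:8193463-8193762 on the minus strand, that of *Insig1* at chr5:28071162-28071461 on the plus strand and that of *Fads2* at chr19:10101454-10101753 on the minus strand.
Hmgcs1: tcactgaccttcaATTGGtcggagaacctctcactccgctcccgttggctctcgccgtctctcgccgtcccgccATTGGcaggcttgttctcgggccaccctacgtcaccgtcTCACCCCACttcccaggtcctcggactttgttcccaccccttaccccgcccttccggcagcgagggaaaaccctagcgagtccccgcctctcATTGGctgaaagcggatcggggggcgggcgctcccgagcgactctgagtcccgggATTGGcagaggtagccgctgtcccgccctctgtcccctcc
Ebp: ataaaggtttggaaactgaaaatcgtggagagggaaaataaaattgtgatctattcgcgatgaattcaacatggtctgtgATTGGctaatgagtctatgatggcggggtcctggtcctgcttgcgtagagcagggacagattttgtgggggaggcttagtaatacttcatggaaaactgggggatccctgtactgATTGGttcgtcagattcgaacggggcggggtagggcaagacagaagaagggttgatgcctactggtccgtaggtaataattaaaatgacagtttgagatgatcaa
Insig1: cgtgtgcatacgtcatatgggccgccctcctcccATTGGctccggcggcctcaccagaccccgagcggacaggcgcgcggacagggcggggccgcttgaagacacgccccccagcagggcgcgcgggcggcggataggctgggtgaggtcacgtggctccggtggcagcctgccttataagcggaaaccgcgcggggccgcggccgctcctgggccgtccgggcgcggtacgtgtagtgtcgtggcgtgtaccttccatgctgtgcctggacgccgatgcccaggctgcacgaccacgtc
Fads2: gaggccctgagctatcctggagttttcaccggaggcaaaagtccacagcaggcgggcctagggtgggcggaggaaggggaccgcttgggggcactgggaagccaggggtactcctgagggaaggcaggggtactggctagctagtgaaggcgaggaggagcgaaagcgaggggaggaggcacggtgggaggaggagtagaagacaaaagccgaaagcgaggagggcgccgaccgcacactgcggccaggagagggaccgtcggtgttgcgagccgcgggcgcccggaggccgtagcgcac
The element of *Hmgcs1* starts at position -137 from the annotated start, and no capitals of the 2 motifs overlap in these promoters. The RefSeq table held 41 promoters for 31 of the 38 genes. The sterol element was found in 1 of these 41 (2.44%), against 1.24% of all 32851 promoters in the table. The CCAAT box was in 26 of 41 (63.4%), against 37.4% of all, and the GC box GGGCGG, on either strand, in 31 of 41 (75.6%), against 35.7% of all. The promoters in the table were not limited to genes tested on these arrays, so these shares do not set lipid genes against other expressed genes. Of the 10 genes with a promoter that were higher in ISM1/ISM2 than in oviduct, 0 held the sterol element, 8 a CCAAT box and 10 a GC box. Of the 16 tested genes with a promoter that did not pass that test, 1 held the sterol element, 13 a CCAAT box and 12 a GC box. A match describes letters in this window and not a bound site. Other forms of the sterol element were not searched, nor were members without a promoter in the RefSeq table, so a missing match does not show that a gene lacks the element.

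The comparison of ISM1/ISM2 with oviduct describes how lipid synthesis transcripts differed between these groups. The labels do not separate the media from other differences between the groups, so an effect of the media cannot be told apart from these. The largest rises were those of *Ebp*, a sterol isomerase of the last steps to cholesterol, and of *Fads2*, a desaturase of polyunsaturated fatty acids, which was detected on the ISM1/ISM2 arrays alone. In all, 11 of the 33 tested genes rose and 1 fell, that is 36.4% called (adjusted p under 0.05, limma), against 25.8% of all units, of which 14.3% were higher and 11.5% lower. *Fads2*, *Dhcr7* and *Stard4* passed the filter on low signals only with the help of the ISM1/ISM2 arrays. Of the 30 genes that passed it without them, 11 were called (36.7%), 10 of them higher, against 25.4% of such units. Among 18 sterol genes, *Mvd*, *Fdps*, *Lss*, *Tm7sf2*, *Ebp* and *Insig1* rose and *Insig2* fell. Among 15 fatty acid genes, *Acss2*, *Fads2*, *Acsl4*, *Me1* and *Tecr* rose and 0 fell. The median log2 difference was 0.63 over the sterol genes and 0.49 over the fatty acid genes, beside 0.02 over all units.

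These calls depended on the arrays compared. Without ISM1/ISM2 replicate 1, 5 of 33 genes were called (15.2%, all of them higher), against 18% of all units, and the medians were 0.289 and 0.195 for the sterol and the fatty acid genes. With oviduct replicate 2, the brightest array, as the single oviduct array, 5 were called (15.2%), against 13.7% of all units. This choice was made after seeing the data, and the lone array was assumed to vary as the arrays of the other groups do. The rises of *Tm7sf2*, *Ebp* and *Acsl4* were called both times, as was that of *Fads2*, whose testing depended on the ISM1/ISM2 arrays. Markers of the embryo's cell types differed as well. Summed on the linear intensity scale, trophectoderm markers came to 36800 to 46200 on the ISM1/ISM2 arrays, against 48900 to 52800 on the oviduct arrays, with 0 of 8 markers higher and 3 lower (*Gata3*, *Eomes*, *Elf5*). Summed primitive endoderm markers came to 14400 to 16200, against 19900 to 22300 in oviduct, with 1 of 9 tested markers higher and 7 lower. Summed epiblast markers came to 4870 to 5290, against 3110 to 3350 in oviduct, where 1 of 5 tested markers was higher (*Nanog*), the median log2 difference of the 5 was -0.34, and *Fgf4* was detected on 0 arrays. Summed maternal markers were 301 to 334, against 308 to 327 in oviduct. Their part in the results was not tested, and in whole embryos fewer cells of a type and less RNA per cell cannot be told apart.

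In the steps up to lanosterol, *Mvd*, *Fdps* and *Lss* rose in ISM1/ISM2, and the other 4 tested enzymes did not pass. *Mvd*, which decarboxylates mevalonate pyrophosphate to the isoprenoid unit, had log2 intensities of 9.77, 8.59 and 8.88 in ISM1/ISM2, 8.0, 7.95 and 8.05 in HTF/MultiBlast, 7.77 and 8.58 in KSOM(aa), 8.16, 7.85 and 7.59 in the micromanipulation control and 7.86, 8.41 and 8.0 in oviduct. All 3 ISM1/ISM2 arrays were above every oviduct array, and replicate 2 lay close to the higher KSOM(aa) array. *Mvd* was 0.98 ± 0.30 (SE) higher on the log2 scale in ISM1/ISM2 than in oviduct (adjusted p = 0.0281, limma), a 1.98-fold difference. *Fdps*, which condenses isoprenoid units to farnesyl pyrophosphate, had 13.00, 12.54 and 12.80 in ISM1/ISM2, 12.00, 11.98 and 11.98 in HTF/MultiBlast, 11.55 and 12.10 in KSOM(aa), 11.85, 11.84 and 11.44 in the control and 11.93, 12.21 and 12.26 in oviduct. No array of another group reached the lowest ISM1/ISM2 array. Its log2 difference from oviduct was 0.64 ± 0.20 (adjusted p = 0.0324), or 1.56-fold. *Lss*, which closes the ring of lanosterol, had 11.33, 10.23 and 10.48 in ISM1/ISM2, 9.69, 9.64 and 9.42 in HTF/MultiBlast, 9.33 and 9.87 in KSOM(aa), 9.50, 9.45 and 8.96 in the control and 9.58, 10.02 and 8.89 in oviduct. The groups did not overlap, and replicate 1 of ISM1/ISM2 was the highest of all arrays. *Lss* was 1.19 ± 0.32 higher than in oviduct (adjusted p = 0.0157), or 2.28-fold.

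The other genes of these steps gave differences from oviduct that did not pass the test. *Hmgcs1*, which makes the precursor of mevalonate and carries the sterol element printed above, differed by -0.08 ± 0.21 (adjusted p = 0.809), with a 95% interval from -0.52 to 0.36. *Idi1*, the isopentenyl isomerase, differed by -0.01 ± 0.37 and *Sqle*, the squalene epoxidase, by -0.18 ± 0.29. *Pmvk*, which phosphorylates mevalonate phosphate, differed by 0.69 ± 0.27 (adjusted p = 0.0715).

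In the steps from lanosterol to cholesterol, *Tm7sf2* and *Ebp* rose. *Ebp* had 12.25, 12.03 and 12.23 in ISM1/ISM2, 10.07, 10.40 and 10.37 in HTF/MultiBlast, 9.64 and 10.81 in KSOM(aa), 9.54, 9.81 and 9.60 in the control and 9.65, 10.31 and 10.22 in oviduct. The ISM1/ISM2 arrays lay close together and far above the other 11. *Ebp* was 2.11 ± 0.27 higher than in oviduct (adjusted p = 0.000112), or 4.32-fold, and 2.071 higher without ISM1/ISM2 replicate 1. *Tm7sf2*, a sterol reductase, had 6.20, 5.92 and 6.13 in ISM1/ISM2, 5.31, 5.45 and 5.39 in HTF/MultiBlast, 5.15 and 5.39 in KSOM(aa), 5.18, 4.99 and 5.19 in the control and 4.85, 5.27 and 5.16 in oviduct. The signal was dim, detected on 3 of 3 ISM1/ISM2 arrays and on 1 of 3 oviduct arrays, and the groups did not overlap. *Tm7sf2* was 0.99 ± 0.17 higher (adjusted p = 0.0012), or 1.99-fold by the fitted values. Since most oviduct signals were not detected, the size is uncertain, and over alternative settings the log2 difference ran from 0.578 to 1.479.

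*Cyp51*, the lanosterol demethylase, *Nsdhl* and *Hsd17b7*, which act in the removal of methyl groups, and *Dhcr7*, the reductase of the final step, differed from oviduct by 0.05 ± 0.48, 1.18 ± 0.65, 0.74 ± 0.45 and 0.31 ± 0.45, none of which passed. *Nsdhl* varied widely within oviduct, with 5.39, 7.40 and 8.59, against 9.06, 8.14 and 7.72 in ISM1/ISM2. *Dhcr7* was detected on 3 of 3 ISM1/ISM2 arrays and on 1 of 3 oviduct arrays, and that oviduct array, at 6.96, was the highest of all 14. Without that array *Dhcr7* differed by 1.00 (adjusted p = 0.0207). It was then a gene detected on the ISM1/ISM2 arrays alone, so this call was in part fixed by the filter and by the array left out. *Nsdhl* differed by 1.91 without oviduct replicate 3 (adjusted p = 0.0345). That was its highest oviduct array, so leaving it out by itself raised the difference. The other tested *Nsdhl* probes gave 0.29 ± 0.21 and 0.24 ± 0.21 with all arrays (adjusted p = 0.358 and 0.431 over all tested probes). *Stard4*, a carrier that moves sterols between membranes, differed by 0.62 ± 0.36 and was detected on 1 of 3 ISM1/ISM2 arrays and on 0 of 3 oviduct arrays, and without ISM1/ISM2 replicate 3 the difference was 1.01 (adjusted p = 0.0482). Like *Dhcr7*, *Stard4* passed the filter only with the help of an ISM1/ISM2 array, so its gained call was also in part fixed by the filter.

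Of the regulators, *Insig1* rose and *Insig2* fell. *Insig1* had 9.11, 8.52 and 8.73 in ISM1/ISM2, 7.46, 7.55 and 7.47 in HTF/MultiBlast, 7.90 and 8.22 in KSOM(aa), 7.76, 7.97 and 7.90 in the control and 8.04, 8.01 and 8.38 in oviduct. All ISM1/ISM2 arrays were above the other 11. *Insig1* was 0.65 ± 0.19 higher than in oviduct (adjusted p = 0.0246), or 1.57-fold. Its 3 tested probes disagreed. A second probe gave 0.55 ± 0.20 (adjusted p = 0.0622 over all tested probes), and another gave -2.41 ± 0.50 (adjusted p = 0.00393), with 5.63, 6.65 and 7.32 in ISM1/ISM2 and 9.45, 9.13 and 8.26 in oviduct. So 2 of the 3 probes were higher in ISM1/ISM2 and 1 was lower, and the mean of the 3 had the opposite sign, at -0.404 (adjusted p = 0.179).

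*Insig2* had 6.97, 7.37 and 6.73 in ISM1/ISM2, 8.53, 8.18 and 8.47 in HTF/MultiBlast, 7.89 and 8.25 in KSOM(aa), 8.11, 7.50 and 8.17 in the control and 7.48, 8.41 and 7.94 in oviduct. It was the single member whose ISM1/ISM2 arrays all lay below the other 11, as they did for 6.14% of all units. *Insig2* was 0.92 lower on the log2 scale, at -0.92 ± 0.27 (adjusted p = 0.0229), or 1.89-fold lower than in oviduct. A second tested *Insig2* probe gave -0.23 ± 0.29, and the mean of both, at -0.577, did not pass (adjusted p = 0.0976). The call was also lost with scaling to the 75th percentile. *Srebf2*, which encodes the SREBP factor that drives sterol genes, differed from oviduct by -0.41 ± 0.35 (adjusted p = 0.416), with an interval from -1.16 to 0.33, and had 9.70, 9.10 and 9.45 in ISM1/ISM2 and 10.17, 9.76 and 9.55 in oviduct. *Scap*, the escort, differed by 0.25 ± 0.20 (adjusted p = 0.388), with 7.88, 7.98 and 7.65 in ISM1/ISM2 and 7.88, 7.62 and 7.25 in oviduct.

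**Figure D1:**
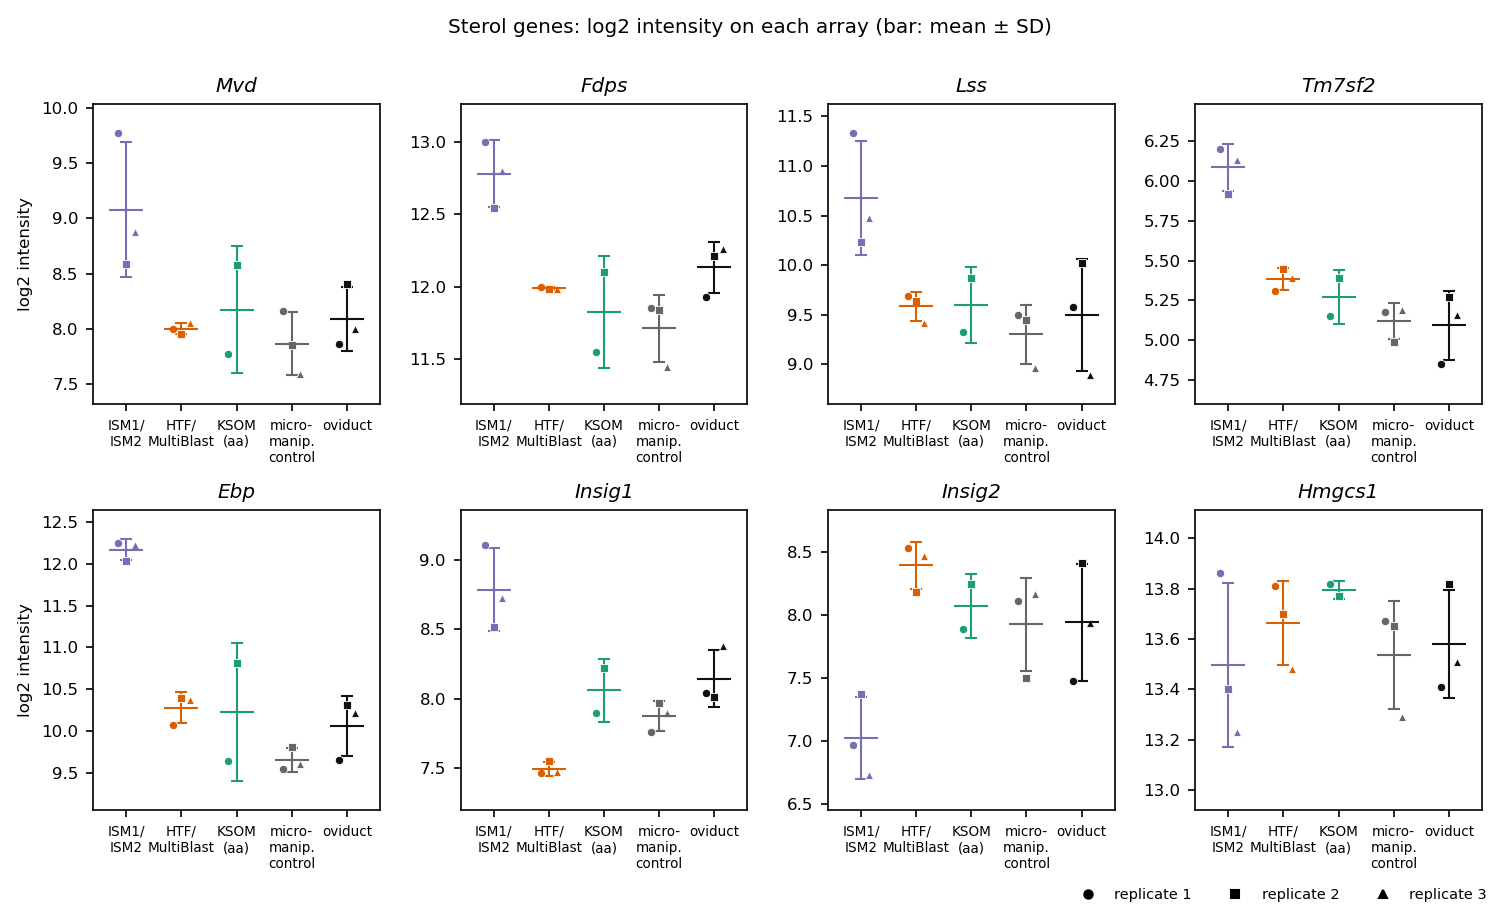
Log2 intensity of 8 sterol genes on each of the 14 arrays, by group; symbols give the replicate number, the long bar the group mean and the whiskers 1 SD, and each panel has its own scale. *Ebp* on the ISM1/ISM2 arrays (12.03 to 12.25) stands above every other array, *Insig2* stands below, and *Hmgcs1* overlaps between ISM1/ISM2 and oviduct.

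Of the fatty acid genes that supply acetyl-CoA and reducing power, *Acss2* and *Me1* rose in ISM1/ISM2. *Acss2*, which makes acetyl-CoA from acetate, had 10.64, 9.35 and 10.51 in ISM1/ISM2, 9.10, 9.88 and 8.97 in HTF/MultiBlast, 9.24 and 9.90 in KSOM(aa), 9.68, 9.93 and 9.89 in the control and 8.86, 8.84 and 8.57 in oviduct. The oviduct arrays were the 3 lowest, below every array of the other groups. *Acss2* was 1.41 ± 0.33 higher in ISM1/ISM2 than in oviduct (adjusted p = 0.00731), or 2.66-fold. *Me1*, a malic enzyme that makes NADPH, had 12.32, 12.03 and 12.31 in ISM1/ISM2, 11.97, 11.67 and 11.70 in HTF/MultiBlast, 11.87 and 11.50 in KSOM(aa), 11.68, 11.67 and 11.38 in the control and 11.66, 11.63 and 11.43 in oviduct. The lowest ISM1/ISM2 array lay just above the highest of the other 11. *Me1* was 0.64 ± 0.18 higher (adjusted p = 0.0188), or 1.56-fold, and a second tested probe gave 0.67 ± 0.21 (adjusted p = 0.0357 over all tested probes). *Acly*, which splits citrate into acetyl-CoA, and *Acaca*, the carboxylase that commits acetyl-CoA to fatty acids, differed by 0.60 ± 0.23 (adjusted p = 0.0768) and 0.49 ± 0.19 (adjusted p = 0.0817), and did not pass, although no array of another group reached their ISM1/ISM2 arrays.

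The desaturases did not move as a group. *Fads2* had 7.62, 6.40 and 6.61 in ISM1/ISM2, 4.55, 4.42 and 4.48 in HTF/MultiBlast, 4.50 and 4.36 in KSOM(aa), 4.40, 4.38 and 4.36 in the control and 4.35, 4.42 and 4.33 in oviduct. It was detected on 3 of 3 ISM1/ISM2 arrays and on 0 of the other 11. The fitted log2 difference from oviduct was 2.51 ± 0.25 (adjusted p = 1.8e-05). *Fads2* passed the filter through its ISM1/ISM2 signals alone, so that its difference was in part fixed by the filter, and with no filter on any probe the adjusted p was 0.000106. Since oviduct gave no detected signal, the difference is stated as at least 2.88-fold, the ISM1/ISM2 mean over a floor for oviduct, which averages per array whichever is higher, the *Fads2* signal or the dimmest signal detected there. *Fads1*, the partner desaturase of *Fads2*, differed from oviduct by 0.67 ± 0.41 (adjusted p = 0.256), with 11.43, 9.88 and 10.14 in ISM1/ISM2 and 8.96, 10.28 and 10.20 in oviduct. *Scd1* and *Scd2*, which desaturate saturated fatty acids, differed by -0.07 ± 0.23 (adjusted p = 0.861) and -0.80 ± 0.32 (adjusted p = 0.0812).

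Of the genes that activate and elongate fatty acids, *Acsl4* and *Tecr* rose. *Acsl4*, an acyl-CoA synthetase with a preference for polyunsaturated fatty acids, had 7.42, 6.47 and 6.80 in ISM1/ISM2, 6.0, 6.05 and 6.06 in HTF/MultiBlast, 5.81 and 5.51 in KSOM(aa), 5.30, 5.62 and 5.63 in the control and 5.61, 5.79 and 5.02 in oviduct. The 3 ISM1/ISM2 arrays were above the other 11, the HTF/MultiBlast arrays came next, and 1 of 3 oviduct arrays detected the probe. *Acsl4* was 1.42 ± 0.26 higher than in oviduct (adjusted p = 0.00146), or 2.68-fold, with a second tested probe at 0.63 ± 0.23 (adjusted p = 0.0635 over all tested probes). With most oviduct signals undetected, the size is uncertain, and over alternative settings the log2 difference ran from 0.966 to 1.831. *Tecr*, the reductase that ends each elongation cycle, averaged 10.68 ± 0.25 in ISM1/ISM2 and 9.91 ± 0.37 in oviduct (SD, n = 3 each), a difference of 0.77 ± 0.24 (SE; adjusted p = 0.031). Its other 2 tested probes gave 0.63 ± 0.20 (adjusted p = 0.0319 over all tested probes) and 0.20 ± 0.34, and the mean of the 3 *Tecr* probes, at 0.534, did not pass (adjusted p = 0.116). *Acsl3*, another acyl-CoA synthetase, the elongases *Elovl1*, *Elovl5* and *Elovl6*, and *Hsd17b12*, a reductase of the elongation cycle, differed by -0.53 ± 0.26, -0.01 ± 0.19, 0.00 ± 0.32, -0.11 ± 0.19 and 0.29 ± 0.21, and none passed.

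**Figure D2:**
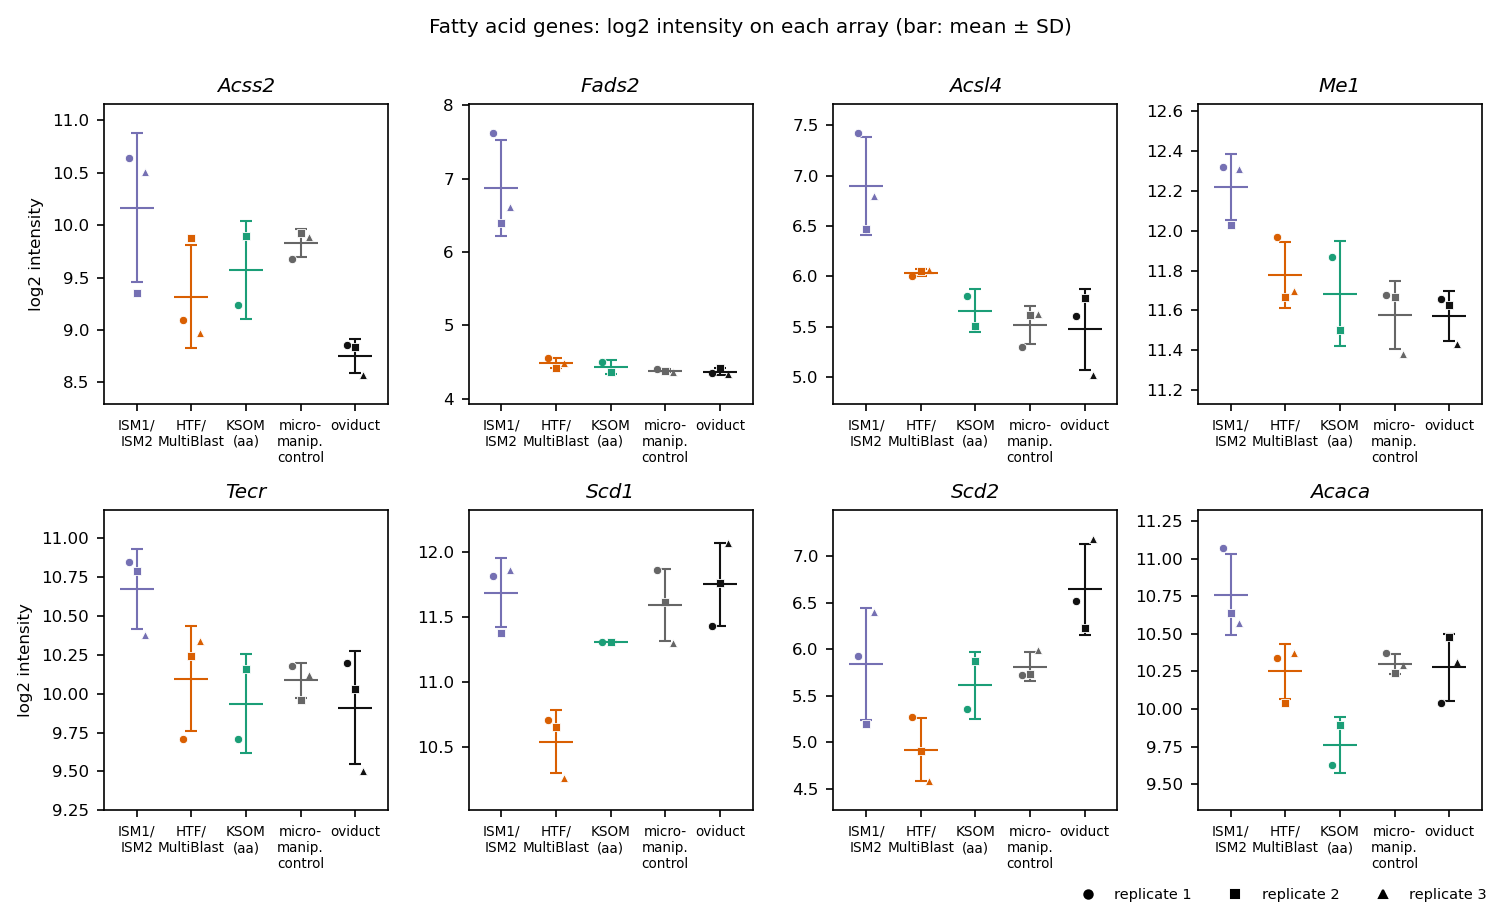
Log2 intensity of 8 fatty acid genes on each of the 14 arrays, by group, with the group mean (long bar), 1 SD (whiskers) and replicate symbols; each panel has its own scale. *Fads2* is above background on the ISM1/ISM2 arrays alone (6.40 to 7.62), and *Scd1* is lowest on the HTF/MultiBlast arrays (10.26 to 10.71).

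The ISM1/ISM2 arrays were also set against all other arrays at once. All 3 lay above each of the other 11 for 12 of the 33 genes (36.4%), against 8.07% of all units, or for 11 of the 30 that passed the filter without these arrays (36.7%), against 7.49% of such units, and ISM1/ISM2 had the highest group mean for 22 of 33 (66.7%), against 29.5% of all units. The 12 were *Mvd*, *Fdps*, *Lss*, *Tm7sf2*, *Ebp*, *Insig1*, *Acaca*, *Acly*, *Fads2*, *Acsl4*, *Me1* and *Tecr*. Leaving out 1 array in turn removed several calls against oviduct. *Mvd*, *Fdps*, *Lss*, *Insig1*, *Insig2*, *Me1* and *Tecr* did not pass without ISM1/ISM2 replicate 1, with adjusted p-values from 0.0682 for *Insig2* and *Me1* to 0.126 for *Mvd*. Without oviduct replicate 1, *Mvd*, *Fdps* and *Insig1* did not pass, without replicate 2 *Fdps*, *Insig1* and *Insig2*, and without replicate 3 *Mvd*, *Lss*, *Me1* and *Tecr*. The calls of *Fdps*, *Insig2* and *Me1* were also lost without ISM1/ISM2 replicate 3, and that of *Tecr* without replicate 2, and the highest adjusted p of the 7 genes in any of these fits was 0.126. Calls were gained by *Scd2* without ISM1/ISM2 replicate 3, by *Pmvk* without either KSOM(aa) array and by *Acly* without oviduct replicate 2, with adjusted p-values from 0.0315 to 0.0466. The F test passed in 6 genes without HTF/MultiBlast replicate 3 and in 7 without ISM1/ISM2 replicate 1 or 3. The share of all units was not computed for these F tests, so whether the drop concerns the members in particular cannot be read from the counts.

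HTF/MultiBlast differed from oviduct in the desaturases of saturated fatty acids. *Scd1* and *Scd2* fell, and 0 genes rose, so that 2 of 33 were called (6.06%), against 6.18% of all units (3.51% higher and 2.68% lower), so the members' share was near that of all units. *Scd1* had 10.71, 10.65 and 10.26 in HTF/MultiBlast, against 11.43, 11.76 and 12.07 in oviduct, with 11.82, 11.38 and 11.86 in ISM1/ISM2, 11.31 on both KSOM(aa) arrays and 11.86, 11.62 and 11.30 in the control. The HTF/MultiBlast arrays were the 3 lowest of the 14. *Scd1* fell by 1.22 ± 0.23 on the log2 scale (adjusted p = 0.00772), or 2.32-fold. *Scd2* had 5.27, 4.91 and 4.59 in HTF/MultiBlast, against 6.52, 6.23 and 7.18 in oviduct, with 5.93, 5.20 and 6.40 in ISM1/ISM2, 5.36 and 5.87 in KSOM(aa) and 5.72, 5.73 and 5.99 in the control. It was detected on 0 of 3 HTF/MultiBlast arrays and on 3 of 3 oviduct arrays, which makes the difference at least 2.6-fold, with a fitted log2 difference of -1.72 ± 0.32 (adjusted p = 0.00745).

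The other genes did not pass in HTF/MultiBlast against oviduct, although probes of *Insig1* did. Its brightest probe differed by -0.65 ± 0.19 (adjusted p = 0.063), its other 2 tested probes by -0.80 ± 0.20 and -2.48 ± 0.50 (adjusted p = 0.0369 and 0.0132 over all tested probes), and the mean of the 3 by -1.311 (adjusted p = 0.0032). All 3 were lower in HTF/MultiBlast. *Insig2* differed by 0.45 ± 0.27 (adjusted p = 0.341), *Srebf2* by -0.73 ± 0.35 (adjusted p = 0.233) and *Scap* by 0.17 ± 0.20 (adjusted p = 0.659). *Cyp51* differed by -1.21 ± 0.48 (adjusted p = 0.15). The medians were 0.04 over the sterol genes and -0.03 over the fatty acid genes, beside 0.03 over all units. Summed primitive endoderm markers were 17900 to 20800 on the HTF/MultiBlast arrays, against 19900 to 22300 in oviduct, with 1 of 9 tested markers higher and 5 lower, and summed trophectoderm markers 39400 to 47000, against 48900 to 52800, with 0 of 8 called. Summed epiblast markers were 4200 to 5530, against 3110 to 3350 in oviduct, with 1 of 5 tested markers higher (*Nanog*) and a median log2 difference of -0.01. Epiblast sums were above oviduct in KSOM(aa) (3900 to 5830) and the control (4310 to 4750) as well. Primitive endoderm sums were 20600 to 27100 in KSOM(aa) and, above every oviduct array, 25700 to 28000 in the control. Trophectoderm sums were 41200 to 63300 and 51300 to 53300 in the same order. No marker of these cell types was called in KSOM(aa) or the control against oviduct. The part of these markers was not tested. With oviduct replicate 2 as the single oviduct array, *Scd1* and *Scd2* did not pass (adjusted p = 0.0798 and 0.177), at differences of -1.221 and -1.301. Without either KSOM(aa) array, which enters only the shared estimate of the spread, the count was 4, with *Insig1* and *Acsl3* added (adjusted p = 0.0478 and 0.0446). The share of all units was not computed for those fits.

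In KSOM(aa) and in the micromanipulation control, 0 of the 33 genes passed against oviduct, where 0.254% and 0.427% of all units did. At an unadjusted p under 0.05, 12.5% and 17% of all units differed in these comparisons. Of the 22 units called in KSOM(aa), 22.7% were higher, and 40% of 10 were with scaling to the 75th percentile in place of quantiles. *Acss2* came closest in the control, at 9.83 ± 0.13 (SD, n = 3) against 8.76 ± 0.16 in oviduct, a log2 difference of 1.08 ± 0.33 (adjusted p = 0.14). In KSOM(aa), *Acss2* differed by 0.82 ± 0.37 (adjusted p = 0.388), *Scd2* by -1.02 ± 0.35 (adjusted p = 0.262) and *Acaca* by -0.52 ± 0.22 (adjusted p = 0.347). *Ebp* differed by 0.16 ± 0.30 in KSOM(aa), with an interval from -0.49 to 0.82, and by -0.41 ± 0.27 in the control, from -0.99 to 0.18. *Insig1* differed by -0.08 ± 0.21 in KSOM(aa) and by -0.27 ± 0.19 in the control, *Insig2* by 0.12 ± 0.30 and -0.02 ± 0.27, *Srebf2* by -0.12 ± 0.39 and -0.58 ± 0.35, and *Scap* by 0.24 ± 0.23 and 0.20 ± 0.20. The *Insig1* probe at -2.41 in ISM1/ISM2 and -2.48 in HTF/MultiBlast gave -2.34 ± 0.50 in the control and -0.94 ± 0.56 in KSOM(aa). Neither passed (limma, adjusted p = 0.0683 and 0.554 over all tested probes). The remaining tested *Insig1* probe gave -0.40 ± 0.20 in the control and -0.28 ± 0.23 in KSOM(aa). Over the sterol genes the medians were 0.04 in KSOM(aa) and -0.25 in the control, and over the fatty acid genes -0.07 and 0.01. All 4 comparisons share the oviduct arrays, so their values are given side by side and not as independent results.

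**Figure D3:**
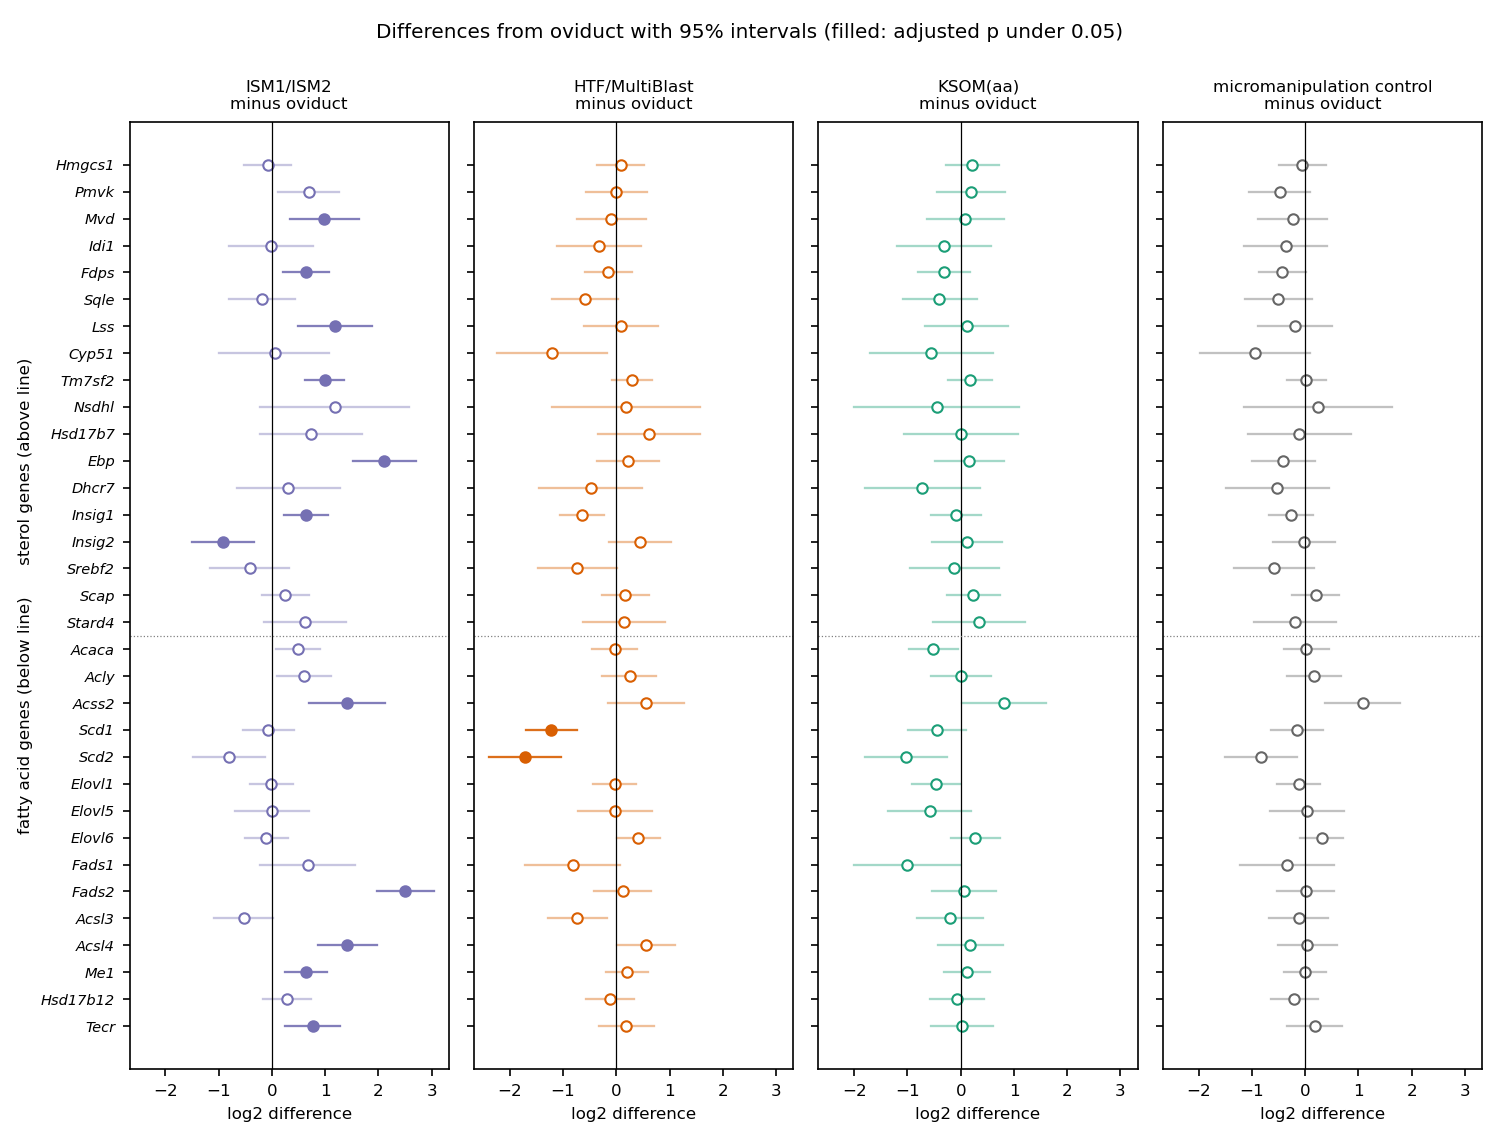
Log2 difference from oviduct of the 33 tested genes in 4 groups, 1 panel each, with 95% intervals; sterol genes stand above the dotted line, fatty acid genes below, and filled points passed an adjusted p of 0.05. The ISM1/ISM2 panel holds 12 filled points, from *Insig2* at -0.92 to *Fads2* at 2.51, the HTF/MultiBlast panel 2 and the other panels 0.

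ISM1/ISM2 was also set against the other 3 groups, in comparisons that share the ISM1/ISM2 arrays. Against the micromanipulation control, 10 of 33 genes were higher and 1 lower, where 16.8% of all units were called (9.08% higher and 7.71% lower). Against KSOM(aa), 8 were higher and 1 lower, where 11.6% of all units were called (6.29% higher and 5.32% lower). Against HTF/MultiBlast, 8 were higher and 1 lower, where 7.13% of all units were called (3.77% higher and 3.36% lower). *Ebp* was 2.52 ± 0.27 higher than in the control (adjusted p = 4.4e-05), 1.95 ± 0.30 higher than in KSOM(aa) (adjusted p = 0.00139) and 1.89 ± 0.27 higher than in HTF/MultiBlast (adjusted p = 0.00111). *Insig2* differed by -0.90 ± 0.27 (adjusted p = 0.0348), -1.04 ± 0.30 (adjusted p = 0.0392) and -1.37 ± 0.27 (adjusted p = 0.00772) in the same order. *Fads2* was at least 2.85-fold, 2.95-fold and 3.06-fold higher (adjusted p = 2.7e-05, 0.000196 and 0.000171). It passed the filter through the ISM1/ISM2 arrays alone, so these p-values were in part fixed by the filter. *Fads2* is also among the genes counted as higher in each of these comparisons.

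Some genes were called against part of these groups. *Pmvk* was 1.17 ± 0.27 higher in ISM1/ISM2 than in the control (adjusted p = 0.00827), where *Mvd*, *Lss*, *Acsl4* and *Me1* were called too. *Acaca* was 1.00 ± 0.22 higher than in KSOM(aa) (adjusted p = 0.00954), beside *Fads1* at 1.69 ± 0.46 (adjusted p = 0.0314) and *Acsl4* at 1.24 ± 0.29 (adjusted p = 0.0137). Against HTF/MultiBlast, *Scd1* was 1.15 ± 0.23 higher in ISM1/ISM2 (adjusted p = 0.00774), *Fads1* 1.49 ± 0.41 (adjusted p = 0.0468) and *Mvd* 1.08 ± 0.30 (adjusted p = 0.0469). *Scd1* was also the 1 gene called between HTF/MultiBlast and the control, at -1.06 ± 0.23 (adjusted p = 0.0286), where 2.33% of all units passed (1.42% higher and 0.911% lower), and it did not pass there without any 1 of the HTF/MultiBlast arrays or control replicates 1 and 2. Between HTF/MultiBlast and KSOM(aa), and between KSOM(aa) and the control, 0 of 33 genes passed, as 0.265% and 0% of all units did (limma), and 9.25% and 4.91% of all units had an unadjusted p under 0.05. Without ISM1/ISM2 replicate 1, the count of ISM1/ISM2 against KSOM(aa) was 4, and it was 5 without either KSOM(aa) array. Against the control it was 7 without control replicate 3, and against HTF/MultiBlast it was 5 without ISM1/ISM2 replicate 1 or HTF/MultiBlast replicate 2 or 3, and also without ISM1/ISM2 replicate 3. Shares of all units were not computed for these fits, so whether the drops concern the members in particular cannot be read from the counts.

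Related lipid genes outside the 38 were counted in the same comparison, where 25.8% of all units were called, 14.3% higher and 11.5% lower. In ISM1/ISM2 against oviduct, 1 of 9 further tested genes of sterol synthesis, uptake and control was higher and 1 lower. These were *Rnf139*, a sterol-regulated ubiquitin ligase, at 0.78 ± 0.27 (adjusted p = 0.0486) and *Vldlr*, a lipoprotein receptor, at -1.13 ± 0.38 (adjusted p = 0.0458), which was detected on 0 of 3 ISM1/ISM2 arrays and is therefore at least 1.77-fold lower. Of 13 further tested genes of fatty acid synthesis and activation, 2 were higher and 3 lower. *Slc25a1*, which exports citrate from mitochondria, was 1.64 ± 0.36 higher (adjusted p = 0.00505), while *Mlycd*, which degrades malonyl-CoA, was at -0.77 ± 0.22 (adjusted p = 0.0195) and the synthetases *Acsl5* and *Acsl6* were at -0.97 ± 0.19 (adjusted p = 0.00263) and -0.65 ± 0.19 (adjusted p = 0.0259). The other higher call was *Acsbg1*, an acyl-CoA synthetase, which was detected on 2 of 3 ISM1/ISM2 arrays and on 0 of the other 11. It was tested only through those 2 arrays, and its signal there was at least 1.02-fold that of the oviduct floor, so the size of the difference is not resolved. Of 17 tested genes of fatty acid oxidation, 0 were higher and 1 lower. This was *Ehhadh* (adjusted p = 0.0449), detected on 0 of 3 ISM1/ISM2 arrays and on 2 of 3 oviduct arrays, and at least 1.06-fold lower. Of 13 tested genes of glycerolipids and lipid droplets, 1 was higher, *Fabp5*, a fatty acid binding protein, at 1.43 ± 0.42 (adjusted p = 0.0231), and 2 were lower, *Dgat2*, which makes triglyceride, at -0.94 ± 0.31 (adjusted p = 0.0407) and *Fabp3* at -0.60 ± 0.18 (adjusted p = 0.0272). The medians of these 4 lists were 0.04, 0.15, 0.15 and -0.29. In the other 3 groups against oviduct, 0 genes of these lists were called.

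Averaged over the genes, the ISM1/ISM2 arrays differed among themselves. The mean z-score, each gene scaled to its own mean and SD over the 14 arrays, was 1.53, 0.25 and 0.55 for the 18 sterol genes and 1.35, 0.15 and 0.86 for the 15 fatty acid genes on ISM1/ISM2 replicates 1, 2 and 3. The oviduct arrays had -0.22, 0.28 and -0.14 for the sterol genes and -0.49, 0.29 and -0.08 for the fatty acid genes. Replicate 2 of ISM1/ISM2 thus lay within the range of the oviduct arrays on both averages, and oviduct replicate 2 was the highest oviduct array. The median SD of the 33 genes was 0.325 in ISM1/ISM2, 0.183 in HTF/MultiBlast, 0.322 in KSOM(aa), 0.158 in the control and 0.337 in oviduct. Outside the 38, the genes whose levels followed the sterol average most closely over the 14 arrays were *Hoxc13* (r = 0.896), *Bgn* (0.878), *Sohlh1* (0.864), *Gpx2* (0.848) and *Gclm* (0.84). With group means removed, these correlations were 0.78, 0.716, 0.821, 0.598 and 0.535. The 14 points include ISM1/ISM2 replicate 1, which stood apart on the sterol average, so the correlations are a description.

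**Figure D4:**
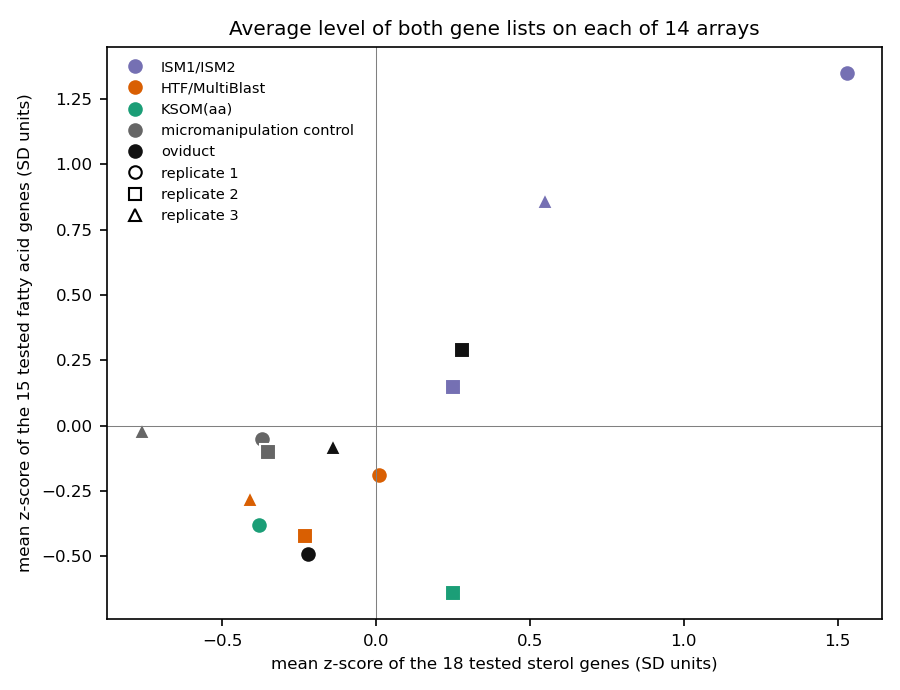
Mean z-score of the 18 tested sterol genes (x axis, SD units) and of the 15 tested fatty acid genes (y axis, SD units) on each of the 14 arrays, with colour for the group and symbol for the replicate. ISM1/ISM2 replicate 1 lies apart at 1.53 and 1.35, and ISM1/ISM2 replicate 2 (0.25 and 0.15) lies next to oviduct replicate 2 (0.28 and 0.29).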

How the data were processed

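RNA of 14 mouse samples in 5 groups was hybridised to single-colour bead arrays from 150 ng of total RNA with 12 h of in vitro transcription, per the labels. The authors deposited each probe's intensity as summarised over its beads and not normalized, and the submitters' processing notes name BeadStudio 3.2, lumi and RMA. A deposited detection p-value goes with each intensity. The authors' log2 values have the same median on every array (2.889) and the same order of probes as the intensities, their background step is not given in the sources used here, and only an alternative used them.

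The neqc function (limma 3.58.1, R 4.3.3) subtracted background estimated through the detection p-values, added an offset of 16, took log2 and equalised quantiles. Of 25697 probes, 10975 had a detection p under 0.01 on at least 2 arrays and were tested. The brightest tested probe represented a symbol, which gave 8669 units, 8025 of them with a symbol. Symbols came from the platform annotation, in which 23978 probes had 1 symbol and 1719 had none. One limma fit to all 14 arrays, with moderated variances (9 residual degrees of freedom and 4.316 from the prior), gave 10 two-sided comparisons and an F test, adjusted by Benjamini and Hochberg over all units at 0.05. The steps were tested on simulated data.

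The members, lists, tests and the rule for named genes were chosen with earlier results of these data known. The rule names each member called in a comparison with oviduct, gives every array's value for up to 8 sterol and 6 fatty acid genes of smallest p, and always gives *Srebf1*, *Srebf2*, *Scap*, *Insig1* and *Insig2*. The 5 genes most like the sterol average were named by their correlation with it. Alternatives concerned the authors' values, the offset, the scaling, the filter, the probe of a gene, the arrays fitted, array weights, the replicate block and each array left out. Promoter sequences are those of RefSeq, build GRCm38.p6.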

Additional observations from a re-analysis of the deposited data

How the results depend on the processing

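Each count of called genes and each median was computed again with 10 other settings and with each of the 14 arrays left out, and all calls among the 33 genes used limma at an adjusted p of 0.05. Counts against oviduct in KSOM(aa) and the micromanipulation control, of KSOM(aa) against the control and of HTF/MultiBlast against KSOM(aa) were 0 in every setting run. With 1 array left out, counts ran from 6 to 15 for the F test, 5 to 13 for ISM1/ISM2 against oviduct, 2 to 4 for HTF/MultiBlast against oviduct, 5 to 13 for ISM1/ISM2 against HTF/MultiBlast, 4 to 10 against KSOM(aa), 7 to 12 against the control and 0 to 1 for HTF/MultiBlast against the control. With only the arrays of the groups compared, the counts were 5 for ISM1/ISM2 against oviduct, 2 for ISM1/ISM2 against KSOM(aa) and 5 for HTF/MultiBlast against the control. With array weights they were 7 for HTF/MultiBlast against oviduct, 14 for ISM1/ISM2 against HTF/MultiBlast, 2 against KSOM(aa), 17 against the control and 4 for HTF/MultiBlast against the control. With scaling to the 75th percentile, they were 5 for ISM1/ISM2 against KSOM(aa) and 0 for HTF/MultiBlast against the control, and 14 genes were higher and 0 lower in ISM1/ISM2 against oviduct. In that last comparison 25.3% of all units were called, and 62.4% of these were higher, against 55.3% in the main fit. The median of all units was 0.08 there, against 0.02 in the main fit. Shares of all units were not computed with array weights or with only the groups compared. With 1 array left out, they were computed only against oviduct and only for some of the arrays. The ranges of counts above therefore do not show whether a drop concerns the members in particular. Among probes detected on all arrays, 1 gene was called in HTF/MultiBlast against oviduct. The alternative with oviduct replicate 2 as the only oviduct array, chosen after seeing the data and with its spread taken from the other groups, gave 5 calls in ISM1/ISM2 and 0 in HTF/MultiBlast.

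The medians against oviduct moved beyond the spread of array medians (SD 0.188 for sterol and 0.161 for fatty acid genes) as follows. For fatty acid genes they were 0.212 in HTF/MultiBlast and 0.808 in ISM1/ISM2 with the 75th percentile, 0.312 in ISM1/ISM2 and -0.311 in KSOM(aa) with array weights, and 0.202 in ISM1/ISM2, -0.35 in KSOM(aa) and -0.183 in the control with oviduct replicate 2 alone. For sterol genes they were -0.173 in HTF/MultiBlast with array weights, 0.441 in ISM1/ISM2 with the mean of a gene's probes and -0.186 in KSOM(aa) with oviduct replicate 2 alone. With 1 array left out, the fatty acid medians ran from 0.195 to 0.589 in ISM1/ISM2 and from -0.239 to 0.086 in KSOM(aa), and the sterol medians from 0.289 to 0.729 in ISM1/ISM2 and from -0.167 to 0.289 in KSOM(aa). *Insig1* in ISM1/ISM2 turned to -0.404 with the mean of its probes, which include 1 of opposite sign. Of the 14 called values against oviduct, those of *Tm7sf2*, *Ebp* and *Acsl4* kept their call in every setting that tested them. That of *Fads2* did too, but it was tested through the ISM1/ISM2 arrays alone. With the mean of a gene's probes, *Insig2* and *Tecr* lost their calls in ISM1/ISM2 (-0.577 and 0.534), and *Insig1* was called in HTF/MultiBlast (-1.311). The causes of the other shifts were not tested. Same-numbered arrays did not deviate together (median r = 0.0253 over 26 pairs, from -0.358 to 0.427), so the replicate numbers were not taken as pairs; with a replicate block, HTF/MultiBlast against the control had 0 calls and ISM1/ISM2 against oviduct 12. The file headers name no slides, so a slide block was not run. Signals near background limit *Fads2*, *Scd2*, *Tm7sf2* and *Acsl4*.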
